A study of Mus musculus with 8 samples.

Results

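A set of 10 marker genes of dendritic cells was followed in macrophages grown from mouse bone marrow: Flt3, Zbtb46, Batf3, Irf4, Xcr1, Ccr7, Itgax, Dpp4, Siglech and Kmo. They were chosen by gene symbol, as markers of conventional, mature and plasmacytoid dendritic cells outside the MHC and interferon genes, and are 10 of the 24421 genes in the table. All 10 had at least 1 CPM (a gene's reads scaled to a fixed total of gene reads per library) in at least 2 of the 8 libraries and so passed the filter, as did 12194 genes in all. Expression was measured by sequencing poly-A RNA from bone marrow-derived macrophages of wild-type (WT) mice and of Rbpj knockout (KO) mice. The KO mice carried Rbpj f/f and LysMCre, so that floxed Rbpj was removed where the Lyz2 promoter drives Cre, that is in macrophages and other myeloid cells. Its product, RBP-J, binds DNA and carries the signal of Notch receptors to their target genes. RNA was taken from each genotype before treatment (day 0) and 2 days after TNF was added at 40 ng/ml. A replicate 1 and a replicate 2 made up each of the 4 groups. An untreated day 2 group was not analysed here, so the cytokine and the time in culture cannot be told apart. The series design states that the experiment was done 2 times, though no label ties the replicate number to an experiment. The labels used here give neither ages nor the animals behind each library. The p-values therefore reflect only the spread among these 8 samples, which may be technical.

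Dendritic cells capture antigen and present it to T cells. They arise from marrow precursors under FLT3 ligand, the cytokine bound by the receptor FLT3, and fall into conventional type 1, conventional type 2 and plasmacytoid cells. Macrophages grown with M-CSF follow a different growth factor receptor, CSF1R, but share with dendritic cells several surface proteins, among them the integrin encoded by Itgax. Notch signalling through RBP-J is known for its part in the development of some splenic dendritic cells.

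Libraries held 9855859 to 35653203 reads, with a read in 14491 to 15773 genes. Rbpj stood at 178 to 226 CPM in the WT libraries and 21.4 to 38.9 CPM in the KO libraries. Replicate 1 and replicate 2 stood apart in every group: markers of stromal cells summed to 116 to 179 CPM in replicate 1 and 3.91 to 32.7 CPM in replicate 2. Neutrophil markers went the other way in each group, with sums of 33.8 to 188 CPM in replicate 1 and 50.2 to 1011 CPM in replicate 2. Where a call depends on it, values are therefore also given from a blocked fit, with replicate number as the block, which compares groups within each replicate number. The parts that stromal and neutrophil cells, or batches, had in the results were not tested.

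Per kilobase of exon, the scale on which genes can be compared, 9 markers had a lower mean than each of 4 macrophage genes (Adgre1, Csf1r, Cd68 and Mertk) in every group, and Itgax did so at day 0 but not with TNF. The mean over the 8 libraries was 30.8 CPM per kilobase for Itgax, 2.59 for Ccr7, 1.07 for Batf3, 0.769 for Irf4 and 0.646 for Siglech. It was 0.378 for Flt3, 0.372 for Kmo, 0.292 for Dpp4, 0.222 for Xcr1 and 0.0958 for Zbtb46. The ranges over libraries overlapped between every pair of neighbours in this order, including Itgax (1.88 to 116 CPM per kilobase) and Ccr7 (0.206 to 8.90). Of those 4, the F4/80 gene Adgre1 averaged 366 CPM per kilobase, Csf1r 436, the lysosomal protein gene Cd68 907 and the engulfment receptor gene Mertk 27.9. Itgax was below Mertk at day 0, with group means of 2.73 against 28.5 CPM per kilobase in WT and 8.88 against 40.8 in the KO. With TNF it was above Mertk, at 63.6 against 29.5 in WT and 48.0 against 12.9 in the KO. By mean CPM over the 8 libraries, in which the TNF groups weigh most for Itgax, it stood at percentile 87.3 of all tested genes, and the other 9 markers between 2.51 (Zbtb46) and 18.1 (Ccr7). All 12 macrophage markers examined reached 1 CPM, and their sums ran from 5792 to 13727 CPM.

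**Figure D1:**
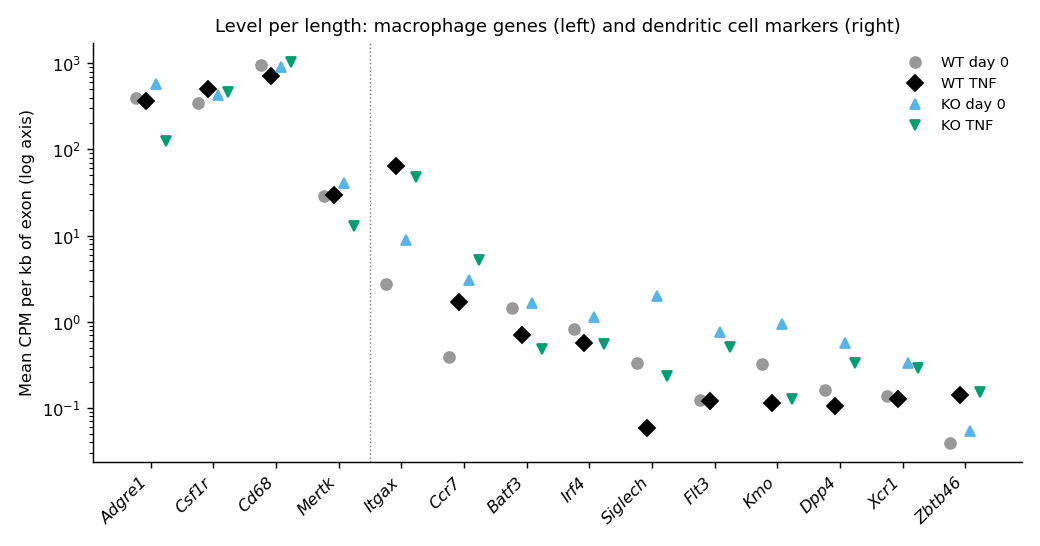
Mean level of each marker in each group, in CPM per kilobase of exon on a log axis, with 4 macrophage genes for scale. Itgax lay within the range of the macrophage genes after TNF, while the other markers lay below 10 CPM per kilobase.

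Genes of the wider dendritic cell lists ranged from under 1 CPM in every library to abundant. In all 8 libraries, 0 of 14 conventional type 1, 3 of 14 conventional type 2, 2 of 14 mature and 4 of 13 plasmacytoid genes stayed under 1 CPM. The genes named next were chosen after their values were seen. Clec9a, a receptor for dead cells on conventional type 1 cells, ran from 0.101 to 1.6 CPM, and Cd209a, a lectin of monocyte-derived and type 2 cells, from 0 to 0.933 CPM. Klk1, of mouse plasmacytoid cells, ran from 0 to 0.666 CPM, whereas the chemokine receptor gene Ccr9 of the same list reached 7.42 CPM and the type 2 list's Cd207 reached 90.4 CPM. In these bulk samples, fewer cells of a type and less RNA per cell cannot be told apart, so a level of a marker does not say whether dendritic cells were present.

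The promoters are shown for 3 markers: Dpp4 and Siglech, which hold letters that RBP-J is known to bind, and Itgax, the most abundant marker, which does not. Each run is read 5′ to 3′ along the gene's own strand, from 250 bases before to 50 bases after the annotated start, from RefSeq on GRCm38.p6. Capitals mark TTCCCA, the reverse complement of the RBP-J core motif TGGGAA. The promoter of Dpp4 lies at chr2:62412182-62412481 (minus strand), that of Siglech at chr7:55767934-55768233 (plus strand) and that of Itgax at chr7:128129300-128129599 (plus strand).
Dpp4: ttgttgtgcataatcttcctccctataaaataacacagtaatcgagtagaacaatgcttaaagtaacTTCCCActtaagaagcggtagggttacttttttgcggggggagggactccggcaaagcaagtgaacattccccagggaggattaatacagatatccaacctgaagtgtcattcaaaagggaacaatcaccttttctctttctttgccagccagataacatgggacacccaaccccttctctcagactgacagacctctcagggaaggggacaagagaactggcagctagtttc
Siglech: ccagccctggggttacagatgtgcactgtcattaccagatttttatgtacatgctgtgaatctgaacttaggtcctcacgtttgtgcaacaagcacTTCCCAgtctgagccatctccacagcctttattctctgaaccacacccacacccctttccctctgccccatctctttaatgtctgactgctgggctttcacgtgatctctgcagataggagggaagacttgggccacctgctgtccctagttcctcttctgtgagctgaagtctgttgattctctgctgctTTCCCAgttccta
Itgax: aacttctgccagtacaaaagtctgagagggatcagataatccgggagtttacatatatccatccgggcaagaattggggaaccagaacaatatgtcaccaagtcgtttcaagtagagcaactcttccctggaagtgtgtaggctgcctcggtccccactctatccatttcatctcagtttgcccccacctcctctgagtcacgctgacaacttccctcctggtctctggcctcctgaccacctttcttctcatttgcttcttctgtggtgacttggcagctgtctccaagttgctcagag
The match in Dpp4 begins at -183 from the start and extends to the longer motif GTGGGAA, read on this strand as TTCCCAC. The matches in Siglech begin at -154 and at 37, the second after the start. Promoters of 9 markers were in the table, all but Ccr7, and 2 of them held TGGGAA on either strand and 1 held GTGGGAA. The windows of Zbtb46 (chr2:181424339-181424638), Kmo (chr1:175631943-175632242) and Batf3 (chr1:191098164-191098463) lie wholly inside the gene spans given below. The outermost starts of these genes were therefore not read. Over all promoters in the table, 25.6% (8397 of 32851) held TGGGAA and 6.38% (2097 of 32851) held GTGGGAA, which lies within the former count. A match describes letters in this window and not a bound site.

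Flt3 (ENSMUSG00000042817.15, GRCm38 chromosome 5, 147330741 to 147400489, minus strand, protein coding like the other 9), the receptor tyrosine kinase on which dendritic cell precursors depend, was low in WT cells and higher in KO replicate 2. Its level was 0.765 and 0.742 CPM in untreated WT replicates 1 and 2 and 0.337 and 1.14 CPM in TNF-treated ones. KO replicates 1 and 2 had 1.29 and 8.13 CPM untreated and 0.507 and 5.75 CPM treated. Both KO libraries lay above both WT libraries at day 0, and the genotypes overlapped after TNF. The summed reads of the day 0 KO libraries stood to those of WT, each relative to its library totals, in a ratio of 5.75 (95% counting interval 4.11 to 8.24, counting error only). The log2 difference on log2(CPM + 0.5), the scale of all log2 differences here, was 1.65 ± 1.05 (moderated standard error; limma adjusted p = 1, Benjamini-Hochberg). Within replicate 1 it was 0.50 and within replicate 2 it was 2.80.

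Of the transcription factors, Batf3, Irf4 and Zbtb46, none passed the test in any comparison. Zbtb46 (ENSMUSG00000027583.13, chromosome 2, 181387762 to 181459426, minus strand), a zinc finger factor of conventional dendritic cells, was the least abundant marker. Untreated WT replicates had 0.401 and 0.260 CPM and treated ones 0.505 and 1.87 CPM. Untreated KO replicates had 0.214 and 0.711 CPM and treated ones 0.507 and 2.06 CPM. WT libraries with TNF lay above those at day 0, and KO libraries overlapped between the times. The replicate 2 libraries with TNF were the 2 that reached 1 CPM, so Zbtb46 passed the filter through them alone. The log2 difference with TNF was 0.90 ± 0.65 in WT (limma adjusted p = 0.735) and 0.79 ± 0.65 in the KO (limma adjusted p = 0.601).

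Batf3 (ENSMUSG00000026630.9, chromosome 1, 191097847 to 191108945, plus strand), a leucine zipper factor needed by conventional type 1 cells, followed another order. Its level was 4.05 and 0.556 CPM in untreated and 0.645 and 1.57 CPM in treated WT replicates. For the KO these levels were 4.29 and 1.02 CPM untreated and 1.12 and 0.422 CPM treated. Replicate 1 was above replicate 2 in 3 of the 4 groups, against the direction of most other markers, and all compared groups overlapped. With TNF the log2 difference in WT was -1.99 within replicate 1 and 0.97 within replicate 2. Irf4 (ENSMUSG00000021356.10, chromosome 13, 30749226 to 30766976, plus strand), an interferon regulatory factor family member of type 2 and migrating dendritic cells, had 2.88 and 5.23 CPM in untreated and 0.729 and 4.83 CPM in treated WT replicates. The KO replicates had 4.50 and 6.62 CPM untreated and 1.32 and 4.06 CPM treated, and these did not overlap, whereas WT did. Within replicates 1 and 2 its difference with TNF was -1.46 and -0.10 in WT and -1.46 and -0.64 in the KO. The KO difference with TNF was -1.05 ± 0.80 (limma adjusted p = 0.564, and 0.110 with the block).

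The chemokine receptor genes had higher summed reads in the KO than in WT at both times, and neither difference passed the test. Ccr7 (ENSMUSG00000037944.8, chromosome 11, 99144196 to 99155077, minus strand), the receptor that brings mature dendritic cells to lymph nodes, had 1.13 and 0.408 CPM in untreated and 1.04 and 5.64 CPM in treated WT replicates. KO levels were 2.29 and 9.86 CPM untreated and 3.04 and 17.6 CPM treated, the last being the highest value of a marker other than Itgax. The genotypes did not overlap at day 0 and overlapped after TNF, though within each replicate number the KO was above WT at both times. The day 0 difference was the largest of the 10 markers, 2.14 ± 1.07 on the log2 scale (limma adjusted p = 1, and 0.739 with the block), with a ratio of summed reads of 7.34 (95% counting interval 5.29 to 10.4). It was 0.77 within replicate 1 and 3.51 within replicate 2. After TNF it was 1.38 ± 1.07 (limma adjusted p = 0.808).

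Xcr1 (ENSMUSG00000060509.4, chromosome 9, 123852315 to 123862029, minus strand), the receptor for XCL1 that marks conventional type 1 cells, had 0.219 and 1.0 CPM in untreated and 0.505 and 0.636 CPM in treated WT replicates. Untreated KO replicates had 0.50 and 2.44 CPM and treated ones 0.812 and 1.79 CPM. After TNF both KO libraries lay above both WT libraries, and at day 0 the genotypes overlapped. The log2 difference after TNF was 0.70 ± 0.66 (limma adjusted p = 0.878), with a ratio of summed reads of 2.62 (95% counting interval 1.62 to 4.26). Within replicates 1 and 2 that ratio was 1.61 (0.605 to 3.89) and 2.82 (1.49 to 5.57).

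**Figure D2:**
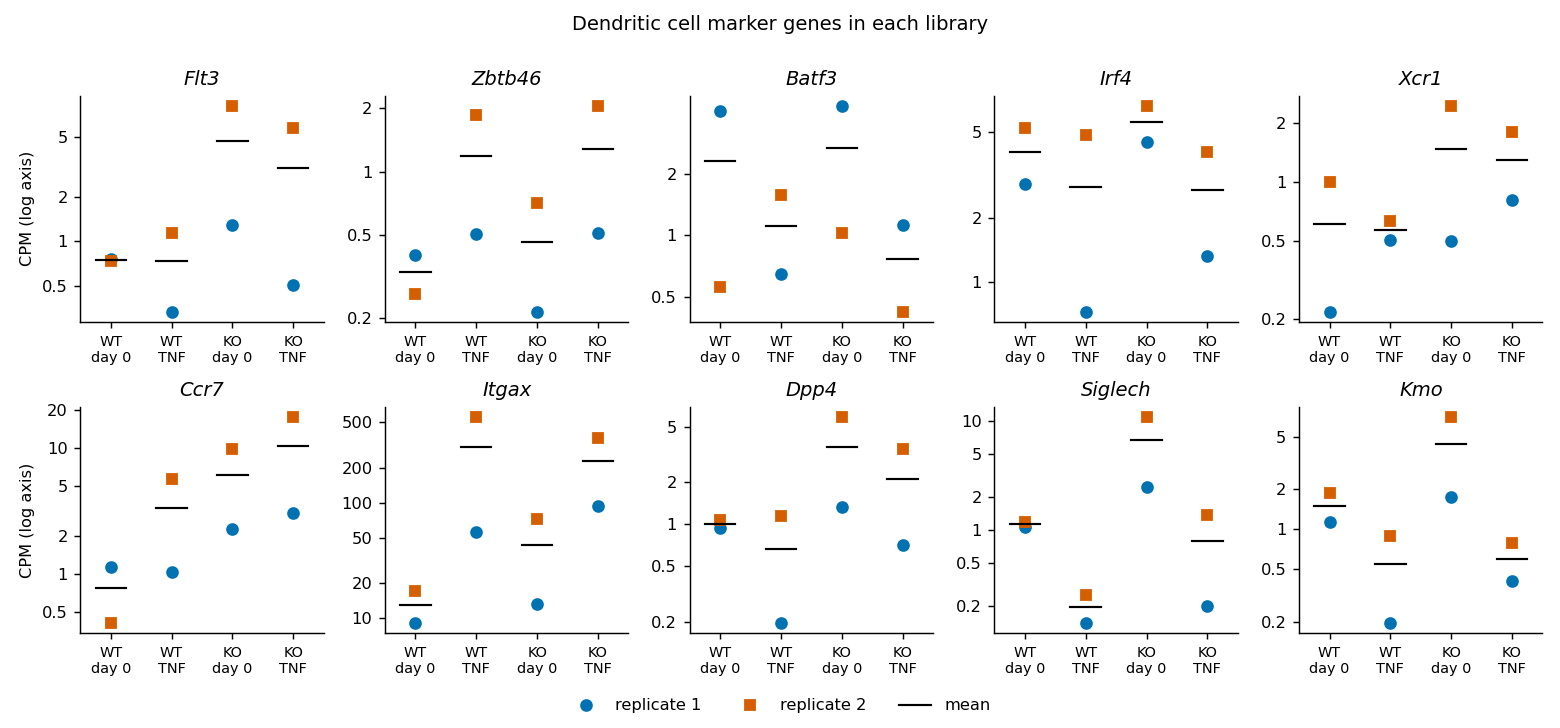
Level of each marker in each library, in CPM on log axes that differ between panels. Circles are replicate 1, squares replicate 2 and bars the group mean; the squares lie above the circles for all 10 markers in WT with TNF and for 9 in each KO group.

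Itgax was the marker with the largest difference after TNF. Itgax (ENSMUSG00000030789.9, chromosome 7, 128129547 to 128150657, plus strand) encodes CD11c, an integrin alpha chain that pairs with the beta-2 integrin chain and is also made by activated macrophages. WT replicates 1 and 2 had 9.04 and 17.1 CPM untreated and 55.7 and 555 CPM treated. KO replicates 1 and 2 had 13.2 and 72.1 CPM untreated and 94.6 and 366 CPM treated. The times did not overlap in either genotype, whereas the genotypes overlapped at both times. The log2 difference with TNF was 3.77 ± 1.29 in WT (limma adjusted p = 0.289) and 2.57 ± 1.29 in the KO (limma adjusted p = 0.351). With the block, Itgax rose in WT (standard error 0.50, limma adjusted p = 0.00861) and in the KO (limma adjusted p = 0.0141). The blocked WT call was lost without WT TNF replicate 2 (limma adjusted p = 0.0537). The blocked KO call was lost when either KO library of either time was left out (limma adjusted p 0.0564 to 0.0792).

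Siglech and Kmo, markers of plasmacytoid and conventional cells respectively, were lower with TNF than at day 0 in each genotype and replicate number, as was Irf4. Siglech (ENSMUSG00000051504.18, chromosome 7, 55768178 to 55778925, plus strand), an endocytic sialic acid-binding lectin, had 1.06 and 1.19 CPM in untreated and 0.140 and 0.254 CPM in treated WT replicates. Its KO levels were 2.47 and 10.8 CPM untreated and 0.203 and 1.37 CPM treated. Neither genotype had overlap between the times, and at day 0 both KO libraries lay above both WT libraries. With TNF, Siglech reached 1 CPM only in KO replicate 2. It passed the filter through the day 0 libraries, so its difference with TNF is not independent of the filter. The libraries with TNF held 5 and 6 Siglech reads in WT and 2 and 26 in the KO. The log2 difference with TNF was -1.22 ± 0.74 in WT (limma adjusted p = 0.645, and 0.172 with the block) and -2.34 ± 0.74 in the KO (limma adjusted p = 0.142). With the block, Siglech fell in the KO (limma adjusted p = 0.0198). That call was lost without KO day 0 replicate 2 (limma adjusted p = 0.155), KO TNF replicate 1 (0.0806) or KO TNF replicate 2 (0.0594). Before TNF the genotypes differed by 1.84 ± 0.74 (limma adjusted p = 1, blocked 0.560), 0.93 within replicate 1 and 2.74 within replicate 2.

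Kmo (ENSMUSG00000039783.15, chromosome 1, 175620381 to 175662116, plus strand), kynurenine 3-monooxygenase of tryptophan breakdown, had 1.13 and 1.89 CPM in untreated and 0.196 and 0.891 CPM in treated WT replicates. Levels in KO replicates were 1.75 and 7.02 CPM untreated and 0.406 and 0.791 CPM treated. The times did not overlap in either genotype, and the genotypes overlapped at both times. Kmo reached 1 CPM only in day 0 libraries and passed the filter through them alone. Its difference with TNF is therefore not independent of the filter. The difference with TNF was -1.0 ± 0.68 in WT (limma adjusted p = 0.701, and 0.146 with the block) and -1.93 ± 0.68 in the KO (limma adjusted p = 0.179). With the block, Kmo fell in the KO (limma adjusted p = 0.0150), a call lost without KO day 0 replicate 2 (limma adjusted p = 0.131) or KO TNF replicate 2 (0.0885).

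Dpp4 (ENSMUSG00000035000.8, chromosome 2, 62330073 to 62412231, minus strand), the CD26 peptidase that marks conventional cells, had its highest values in KO replicate 2. Before TNF, WT replicates had 0.948 and 1.08 CPM and KO replicates 1.32 and 5.86 CPM. After TNF, WT replicates had 0.196 and 1.14 CPM and KO replicates 0.710 and 3.48 CPM. The genotypes did not overlap at day 0 and overlapped after TNF. The KO minus WT log2 difference was 1.17 ± 0.84 before TNF (limma adjusted p = 1, blocked 0.818) and 1.04 ± 0.84 after TNF (limma adjusted p = 0.821). The ratio of summed reads was 3.31 at day 0 (95% counting interval 2.43 to 4.57) and 4.41 after TNF (2.90 to 6.84), counting error only. Within replicates 1 and 2 the Dpp4 ratio was 1.40 (0.823 to 2.40) and 5.45 (3.62 to 8.45) at day 0. After TNF it was 3.62 (1.08 to 12.1, from 7 reads against 7) and 3.04 (1.92 to 4.95), both below the pooled value.

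Between genotypes at day 0, none of the 10 differences passed the test. All 10 mean log2 differences were above 0, from 0.17 for Zbtb46 to 2.14 for Ccr7, with a median of 1.12 against 0.01 for all genes tested. limma called 0 of the 10 and 0% of all genes tested, with 1 marker and 1.34% of all genes at an unadjusted p under 0.05. With the block it called 0 markers and 0.00820% of all genes, with 6 markers and 5.98% of all genes at an unadjusted p under 0.05. Both edgeR and DESeq2 called 0 markers, beside 0 and 24 of all genes tested. At an unadjusted p under 0.05 edgeR had 0 markers and 1.41% of all genes, and DESeq2 had 3 markers and 2.32%. Both KO libraries lay above both WT libraries for 4 markers, Flt3, Ccr7, Siglech and Dpp4, and for 9.86% of all genes tested. The KO was higher within each replicate number for 9 markers, all but Zbtb46 (-0.33 within replicate 1), and for 31.8% of all genes. The median difference was 0.49 within replicate 1 and 1.83 within replicate 2. The library labelled KO day 0 replicate 2 held the highest value of 6 markers, Flt3, Xcr1, Siglech, Irf4, Dpp4 and Kmo. Without it the differences of Zbtb46 and Xcr1 were -0.21 and -0.055, and those of Itgax, Kmo, Irf4 and Dpp4 were 0.0775, 0.19, 0.19 and 0.27. Those of Flt3, Siglech, Batf3 and Ccr7 were then 0.51, 0.87, 1.13 and 1.2. That library also had the highest sums of the neutrophil (1011 CPM) and monocyte (856 CPM) markers and of the macrophage markers (13727 CPM). The part of these cells in the difference was not tested.

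**Figure D3:**
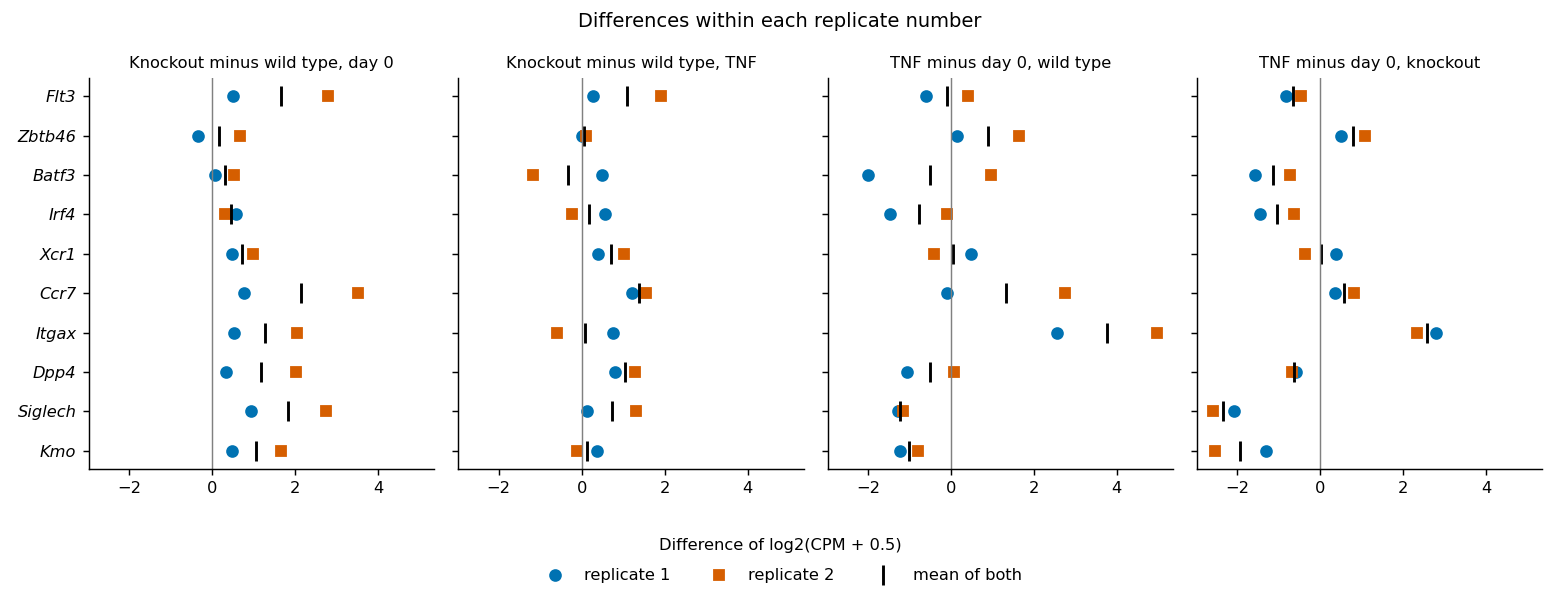
Log2 difference of each marker between the compared groups, on log2(CPM + 0.5), within replicate 1 (circles), within replicate 2 (squares) and their mean (bar). At day 0 the KO minus WT differences are larger within replicate 2 for all markers except Irf4, and Siglech, Kmo and Irf4 lie below 0 with TNF in both genotypes and both replicates.

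Between genotypes after TNF, none of the differences passed the test. Of the 10 log2 differences, 9 were above 0 and that of Batf3 was -0.33, with a median of 0.43 against 0.02 for all genes tested. limma called 0 markers (0 at an unadjusted p under 0.05) and 0.00820% of all genes. With the block it again called 0 markers (0 unadjusted), while it called 9.28% of all genes. edgeR and DESeq2 called 0 markers (0 unadjusted in each), beside 0 and 593 of all genes tested. The shares of all genes at an unadjusted p under 0.05 were 11.3% by limma, 27.4% with the block, 11.3% by edgeR and 14.2% by DESeq2. Xcr1 was the 1 marker whose KO libraries both lay above both WT libraries, beside 18.8% of all genes. The KO was higher within each replicate number for 6 markers, Flt3, Zbtb46, Xcr1, Ccr7, Siglech and Dpp4, beside 38.1% of all genes. For the other 4 markers the sign differed between replicates 1 and 2: 0.76 and -0.60 for Itgax, 0.57 and -0.23 for Irf4, 0.38 and -0.11 for Kmo and 0.50 and -1.17 for Batf3. Itgax and Irf4 were also below 0 without the block by edgeR (-0.50 and -0.12) and DESeq2 (-0.52 and -0.14).

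In WT cells after 2 days with TNF, Itgax and Zbtb46 lay above their day 0 values without overlap and Siglech and Kmo below. Siglech and Kmo reached 1 CPM in no WT library with TNF and passed the filter through day 0 libraries. Their places here are therefore not independent of the filter. Zbtb46 passed the filter only through the replicate 2 libraries with TNF, so its place is not independent of the filter either. In WT replicate 1 it held 18 reads with TNF and 11 at day 0, a ratio of 1.26 (95% counting interval 0.563 to 2.95). Non-overlap upward held for 14.8% of all genes tested and downward for 22.6%, so 2 of 10 markers in each direction is near the background. limma called 0 markers (1 at an unadjusted p under 0.05) and 1.18% of all genes. With the block it called 1, Itgax, and 10.3% of all genes, 5.54% upward. edgeR called 0 markers without the block (1 unadjusted) and 1 with it, and DESeq2 called Itgax (DESeq2 adjusted p = 0.00146). Of all 12194 genes, edgeR called 60 without the block and 1163 with it, and DESeq2 called 874. Without the block, 12.1% of all genes were at an unadjusted p under 0.05 by limma, 12.1% by edgeR and 15.1% by DESeq2. The median of the 10 differences was -0.30 against -0.12 for all genes. Scaling libraries by the median ratio in place of total reads shifted all genes by 0.11 on the log2 scale in this comparison. Osteoclast markers summed to 128 and 157 CPM in untreated and 6554 and 4898 CPM in treated WT replicates, and their part in the difference of Itgax was not tested.

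In KO cells after TNF, Itgax lay above day 0 without overlap, beside 20.4% of all genes, and Siglech, Irf4 and Kmo below, beside 25.2%. Siglech and Kmo passed the filter through day 0 libraries, so their places here are not independent of the filter. limma called 0 markers (2 at an unadjusted p under 0.05) and 5.10% of all genes. With the block it called 3, Itgax up and Siglech and Kmo down, and 25.9% of all genes (12.2% up and 13.7% down), a share near that of the markers. edgeR called 0 markers without the block (2 unadjusted) and 3 with it, and DESeq2 called 0 (3 unadjusted). Of all 12194 genes, edgeR called 497 without the block and 3074 with it, and DESeq2 called 1701. Without the block, 19.5% of all genes were at an unadjusted p under 0.05 by limma, 19.4% by edgeR and 23.2% by DESeq2. Other cell markers moved between the same groups: the osteoclast markers summed to 132 and 200 CPM in untreated and 18466 and 43963 CPM in treated KO replicates. Neutrophil markers summed to 188 and 1011 CPM in untreated and 33.8 and 50.2 CPM in treated KO replicates. Macrophage markers summed to 11009 and 13727 CPM in untreated and 5792 and 6536 CPM in treated KO replicates. The part of these changes in those of Itgax, Siglech and Kmo was not tested.

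The response to TNF was also compared between genotypes directly. The KO response minus the WT response was below 0 for all 10 markers, from -1.2 ± 1.82 for Itgax to -0.03 ± 0.93 for Xcr1. It was below 0 for 5988 of all 12194 genes tested, with a median of 0.01 against -0.59 for the markers. The day 0 libraries enter with the sign opposite to that in the day 0 comparison. Among them is KO day 0 replicate 2, which held the highest value of 6 markers. The signs here are therefore not independent of those at day 0. Leaving out 1 library changed the sign for every marker except Siglech and Kmo in at least 1 fit. None of the 10 differences passed the test. limma called 0 markers with or without the block (0 unadjusted in each) and 0% of all genes tested. edgeR and DESeq2 called 0 markers (0 unadjusted), beside 0 and 78 of all genes tested. Siglech differed by -1.11 ± 1.05 and Kmo by -0.92 ± 0.96, so a blocked call in the KO and none in WT does not show that their responses differed.

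Further dendritic cell genes were read from lists of 13 or 14 genes, and their counts stand against the shares of all genes. Those called by limma were 1.18% with TNF in WT, 5.10% with TNF in the KO, 0% between genotypes at day 0 and 0.00820% after TNF. With the block they were 10.3%, 25.9%, 0.00820% and 9.28%. Of the conventional type 1 list, 13 of 14 genes passed the filter and limma called 0 in every comparison, with 3 at an unadjusted p under 0.05 with TNF in WT, 4 with TNF in the KO, 0 between genotypes at day 0 and 3 after TNF. The shares of all genes at an unadjusted p under 0.05 were 12.1%, 19.5%, 1.34% and 11.3% in these comparisons, also for the lists below. With the block the share at day 0 was 5.98%. In the type 1 list edgeR called 0 genes, and DESeq2 called 3, 4, 0 and 1, beside 874, 1701, 24 and 593 of all 12194 genes. With the block, limma called Naaa and Ly75 higher with TNF in both genotypes. In the KO it called Irf8, Id2, Tlr3 and Wdfy4 lower with TNF, Irf8 being the factor that sets type 1 identity and is also made by macrophages. With the block, 13.7% of all genes were called lower in that comparison and 25.9% in either direction. Cadm1 was lower with TNF in WT (blocked limma adjusted p = 0.0109). Between genotypes after TNF, the block called Cadm1 higher and Irf8 lower in the KO. Its most abundant members were Cadm1, an adhesion molecule, at 213 to 754 CPM and Wdfy4, needed for cross-presentation, at 66.8 to 333 CPM. Their day 0 differences between genotypes were -0.01 ± 0.35 and 0.22 ± 0.51. The median of the list between genotypes at day 0 was 0.21, with 11 of 13 above 0, and with TNF it was -0.16 in WT and -0.60 in the KO.

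Of the conventional type 2 list, 11 of 14 genes passed the filter and limma called 1 higher with TNF in WT and 2 in the KO, and 0 lower, beside 1.18% and 5.10% of all genes called in either direction. Relb, an NF-kB subunit also induced in macrophages, rose in WT from 12.1 and 10.5 CPM to 102 and 71.7 CPM, by 2.86 ± 0.30 (limma adjusted p = 0.0188). It rose in the KO from 15.0 and 18.1 CPM to 84.9 and 62.9 CPM, by 2.12 ± 0.30 (limma adjusted p = 0.0169). Each Relb call was lost when 1 of the 4 libraries it compares was left out (limma adjusted p 0.0602 to 0.158 in WT and 0.0752 to 0.0913 in the KO). Esam, an adhesion molecule of Notch-dependent splenic cells, rose in the KO from 0.536 and 1.2 CPM to 7.71 and 5.17 CPM, by 2.36 ± 0.50 (limma adjusted p = 0.0489), a call lost without any 1 of the 8 libraries (0.0712 to 0.205). In WT its difference was 2.13 ± 0.50 (limma adjusted p = 0.124, and 0.0283 with the block), and 0 genes of the list were called between genotypes without the block (0 unadjusted at day 0 and 1 after TNF). With the block, 3 of the 11 were called higher with TNF in WT, Relb, Esam and the Notch receptor gene Notch2, beside 5.54% of all genes. In the KO, 2 were called higher with TNF, Relb and Esam, beside 12.2% of all genes, and 1 lower, the lectin gene Clec10a, beside 13.7%. Notch2 was called lower in the KO than in WT after TNF with the block, a comparison in which 9.28% of all genes were called.

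Of the mature dendritic cell list, 12 of 14 genes passed the filter, and limma called Cd200 higher with TNF in the KO and 0 others. Cd200, a surface protein that restrains myeloid cells through its receptor, rose from 1.32 and 1.33 CPM to 86.5 and 163 CPM in the KO, by 6.03 ± 0.60 (limma adjusted p = 0.00706), a call lost without KO day 0 replicate 2 or KO TNF replicate 2 (0.0509 and 0.0562). In WT it went from 0.875 and 1.0 CPM to 9.42 and 30.4 CPM (limma adjusted p = 0.0506, and 0.00547 with the block). Fscn1, the actin bundler of mature dendritic cells named after its values were seen, had 3.94 and 0.668 CPM in untreated and 5.13 and 23.1 CPM in treated WT replicates, and 8.26 and 8.35 CPM and then 13.7 and 30.3 CPM in the KO. The day 0 median of the list between genotypes was 0.66, with 11 of 12 above 0 and 0 called by limma (0 unadjusted, and 2 unadjusted with the block). With the block, limma called Cd200, Ccl22 and Cd274, the PD-L1 gene, higher with TNF in both genotypes and the costimulatory Cd86 lower in the KO. Of all genes, 5.54% were then called higher in WT, and 12.2% higher and 13.7% lower in the KO. Cd200 was also called higher in the KO than in WT after TNF, by 2.77 (blocked limma adjusted p = 0.0220).

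Of the plasmacytoid list, 8 of 13 genes passed the filter, and limma called Tcf4 lower with TNF in the KO and 0 others. Tcf4, the E protein on which plasmacytoid cells depend, fell in the KO from 104 and 157 CPM to 44.1 and 44.9 CPM, by 1.52 on the log2 scale (standard error 0.30, limma adjusted p = 0.0412), a call lost without any 1 of the 8 libraries (0.0639 to 0.226). WT replicates had 110 and 157 CPM untreated and 51.0 and 42.6 CPM treated (limma adjusted p = 0.0867, and 0.0144 with the block). With the block, Lair1, Ly6c2 and Ly6d were also called lower with TNF in the KO, and Lair1 was called lower in the KO than in WT after TNF. Of all genes, 13.7% were called lower in the former comparison and 9.28% in either direction in the latter. Between genotypes at day 0, 7 of the 8 were above 0, with a median of 0.63 and 0 called by limma (0 unadjusted, and 3 with the block).

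**Figure D4:**
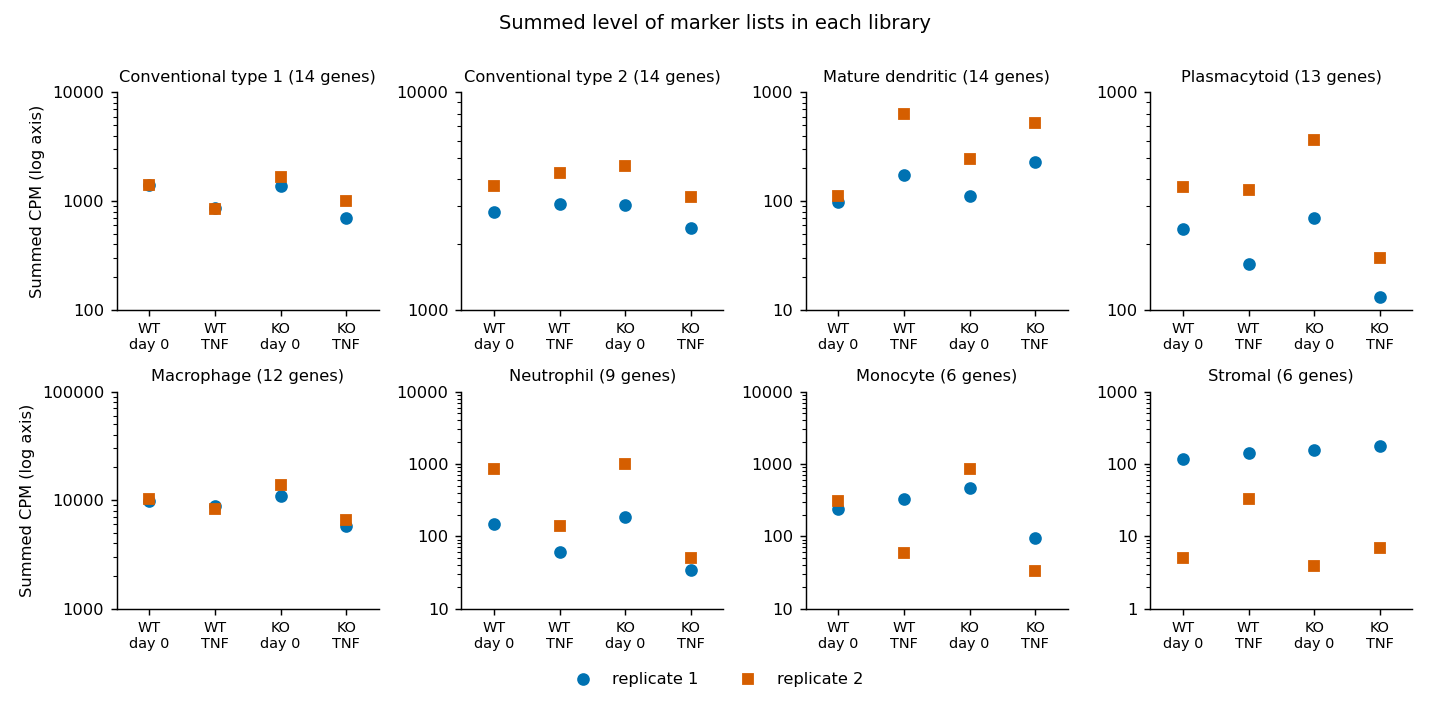
Summed CPM of each list of dendritic cell genes and of markers of other cell types in each library, on log axes. Circles are replicate 1 and squares replicate 2; stromal sums are higher in replicate 1 and neutrophil sums higher in replicate 2 in all 4 groups.

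The partners of the markers were read in the same way. List genes named for a call in the blocked fit, here and above, were chosen after their values were seen. Among the growth factor receptors and signal transducers around FLT3, 9 of 9 genes were tested and limma called 1, Csf2rb, the common beta chain of the GM-CSF receptor. It rose in WT from 110 and 105 CPM to 582 and 690 CPM with TNF, by 2.55 ± 0.29 (limma adjusted p = 0.0211), a call lost without any 1 of the 4 WT libraries (0.0602 to 0.197). KO replicates had 143 and 239 CPM untreated and 459 and 450 CPM treated (limma adjusted p = 0.0587, and 0.00966 with the block). Its value is uncertain where reads could also come from its close paralogue Csf2rb2, since how such reads were counted is not stated. Flt3l, the gene of the FLT3 ligand, ran from 0.580 to 4.99 CPM.

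Of the integrin genes beside Itgax, 3 of 4 were tested and limma called 0 (1 unadjusted with TNF in WT). Itgb2, the beta chain that pairs with the Itgax product, had 897 and 599 CPM in untreated and 2354 and 1810 CPM in treated WT replicates (limma adjusted p = 0.168, and 0.0128 with the block). Itgam, which encodes CD11b, differed by 0.71 ± 0.39 in WT with TNF (limma adjusted p = 0.584), against 3.77 for Itgax. The ligands of XCR1 and CCR7 were nearly absent from the libraries: Ccl19 and Ccl21a were listed at 0 in all 8, where a count of 0 allows up to 3 reads, or 0.0841 to 0.304 CPM, and Xcl1 reached at most 0.127 CPM.

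Of the Batf and Irf family list, 9 of 10 genes were tested and limma called 0 in every comparison. With the block it called Irf2, Irf5 and Irf9 lower with TNF in the KO, where 13.7% of all genes were called lower. It also called Irf2 lower in the KO than in WT after TNF, where 9.28% of all genes were called in either direction. Spi1, the PU.1 gene, differed by 0.21 ± 0.57 between genotypes at day 0. Irf7, induced by type I interferon, followed replicate number: it ran from 20.8 to 44.6 CPM in the replicate 1 libraries and from 180 to 1130 CPM in those of replicate 2. Of the Dpp4 family, 4 of 7 genes were tested and limma called 0, with or without the block (without it, 0 unadjusted). Dpp8 and Prep, its cytosolic relatives, differed by 0.09 ± 0.35 and -0.17 ± 0.55 between genotypes at day 0. Of the kynurenine pathway around Kmo, 11 of 13 symbols were in the table, 5 genes were tested and limma called 0 (2 unadjusted with TNF in the KO). With the block it called Ccbl1 higher and Haao lower with TNF in the KO, beside 12.2% and 13.7% of all genes. Ccbl2, also named Kyat3, and Afmid, its most abundant members, differed by -0.14 ± 0.40 and 0.05 ± 0.45 with TNF in the KO, where Kmo differed by -1.93.

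The markers also differed between replicate numbers within a group. Replicate 2 was higher than replicate 1 for 6 of 10 markers in WT at day 0, 10 in WT with TNF, 9 in the KO at day 0 and 9 in the KO with TNF. The median log2 difference between replicates 2 and 1 was 0.12, 1.12, 1.77 and 1.38 in these groups, against -0.05, -0.27, -0.10 and -0.16 for all genes tested. For Flt3, KO day 0 replicate 1 (1.29 CPM) lay closer to the WT libraries than to KO day 0 replicate 2 (8.13 CPM). Batf3 was the marker that was higher in replicate 1 in both KO groups.

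Genes with profiles most like those of the 5 markers with a mean of at least 2 CPM were found by Pearson r over the 8 libraries on the log2 scale, among 11007 genes. Flt3 was most like the zinc finger genes Zfp810 (r = 0.991) and Zfp458 (0.974), and Siglech was most like Casp9 (0.979) and Hsd17b4 (0.978). Itgax was most like Bcl2a1a (0.987), uncertain because it has near-identical copies and the counting of shared reads is not stated, and Rasgrp1 (0.985), which went from 0.328 and 0.742 CPM in WT at day 0 to 11.1 and 111 CPM with TNF. Ccr7 was most like Apol7c (0.989) and Abr (0.937), and Irf4 was most like Pomp (0.958) and Csrnp2 (0.953). These 8 libraries share genotype, TNF and replicate number, so such values describe profiles and are picked as the highest of many.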

How the data were processed

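RNA of mouse bone marrow-derived macrophages was sequenced in 8 libraries, 2 in each of 4 groups. The deposited table holds CPM, which per the submitters' processing notes were made by the authors with fastp, HISAT2, HTSeq and edgeR on build mm10; their versions and settings, the strand and the annotation are not given in the sources used here. Total RNA was taken on columns and poly-A RNA was used for libraries, per the labels' protocols. All values were whole multiples of 1 read (100% within 0.01), so reads were recovered. The precision of each value follows its reads: 10 reads were 0.280 to 1.01 CPM, and counting intervals cover counting error only.

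The 12194 genes that reached 1 CPM in 2 or more libraries were tested with limma (eBayes with trend, 2-sided) on log2(CPM + 0.5), with group as the only term and 4 residual degrees of freedom (3 with the replicate block). This scale understates changes of low genes. The ± after a log2 difference is the moderated standard error. Benjamini-Hochberg adjustment ran over all genes tested, with a threshold of 0.05, in each of 5 contrasts. edgeR and DESeq2 on recovered reads, other pseudocounts, no filter, another scaling, the 4 libraries of a contrast alone and leaving out each library were alternatives. Tests were checked on simulated data. The tools were limma 3.58.1, DESeq2 1.42.0 and edgeR 4.0.16 in R 4.3.3, and Python 3.11.15.

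Libraries with the same replicate number were taken as pairs: the series design states that the experiment was done 2 times, though no label ties the number to an experiment, and differences between replicates 2 and 1 across genes correlated in all 6 pairs of groups (Pearson r 0.577 to 0.805). Counts of the 2 libraries of a group differed beyond sampling noise in all 4 groups. Positions and exon lengths are from GENCODE M21 on GRCm38, where 23309 symbols of the table matched once. The markers and lists were chosen with earlier results of these data known. Named genes were Rbpj, every marker, up to 4 called or else the 2 most abundant genes of each list, 4 macrophage genes and the 2 genes most like each marker with a mean of at least 2 CPM. Further list genes were named after their values were seen. Markers of B cells summed to 1.09 to 10.5 CPM and of T and NK cells to 0.437 to 8.57 CPM.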

Additional observations from a re-analysis of the deposited data

How the results depend on the processing

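Without a block, 0 of 10 markers were called by limma in each of the 5 comparisons, also under other pseudocounts, without the filter, with median-ratio scaling, within the 4 libraries of a contrast and with edgeR. With the replicate block the count was 1 with TNF in WT and 3 with TNF in the KO, by limma and by edgeR. DESeq2 called 1 with TNF in WT. Leaving out 1 library at a time, with or without the block, gave 0 to 2 markers with TNF in WT and 0 to 3 with TNF in the KO. The block changed no other marker call. In the blocked fit, leaving out WT day 0 replicate 1 also called Ccr7 with TNF in WT (limma adjusted p = 0.0157), and leaving out WT TNF replicate 2 left 0 calls there. In the KO, leaving out day 0 replicate 2 or TNF replicate 2 left 0 calls, and leaving out TNF replicate 1 left 1. Over all genes, calls with TNF in WT were 144 in the unblocked limma fit, 78 without the filter, 28 within the 4 libraries, 60 by edgeR, 1250 with the block, 1163 by edgeR with the block and 874 by DESeq2. With TNF in the KO they were 622, and 71 within the 4 libraries, 3162 with the block, 3074 by edgeR with the block and 1701 by DESeq2. After TNF, calls between genotypes were 1, and 13 without the filter, 2 with median-ratio scaling, 1131 with the block, 811 by edgeR with the block and 593 by DESeq2, with 0 at a pseudocount of 0.1, within the 4 libraries and by edgeR. At day 0 DESeq2 called 24 and the block 1, and for the difference of responses DESeq2 called 78, in place of 0. The cause was not tested.

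Of 440 marker differences under alternatives other than leaving out a library, 419 kept their direction and their side of the threshold, 9 passed the threshold anew and 12 changed sign. Those of Flt3 with TNF in WT became 0.15 (edgeR) and 0.18 (DESeq2). For Itgax between genotypes after TNF they were -0.50 (edgeR), -0.10 (edgeR with the replicate block) and -0.52 (DESeq2). For Xcr1 with TNF in the KO they were -0.0149 (pseudocount 1), -0.0532 (edgeR) and -0.0763 (DESeq2). Irf4 after TNF gave -0.12 (edgeR) and -0.14 (DESeq2), and Dpp4 in the difference of responses gave 0.10 (pseudocount 0.1) and 0.31 (edgeR with the replicate block). None of these was called. Leaving out a library changed the sign of 28 log2 differences, none of them called in the unblocked limma fit; the ranges over the 16 fits follow. With TNF in WT, the range was -1.70 to 0.68 for Batf3, -0.13 to 2.80 for Ccr7, -1.23 to 0.24 for Dpp4, -1.09 to 0.90 for Flt3, -1.84 to 0.28 for Irf4 and -0.49 to 0.57 for Xcr1. With TNF in the KO, the range was -0.60 to 1.75 for Ccr7, -1.54 to 0.27 for Dpp4, -1.96 to 0.67 for Flt3 and -0.76 to 0.79 for Xcr1. Between genotypes at day 0, the range was -0.75 to 1.35 for Batf3, -0.0069 to 0.89 for Irf4, -0.055 to 1.5 for Xcr1 and -0.51 to 0.85 for Zbtb46. Between genotypes after TNF, the range was -1.52 to 0.85 for Batf3, -0.22 to 2.41 for Flt3, -0.89 to 1.23 for Irf4, -1.57 to 1.73 for Itgax, -0.36 to 0.64 for Kmo and -0.61 to 0.73 for Zbtb46. In the difference of TNF responses, the range was -1.82 to 0.55 for Batf3, -2.22 to 0.70 for Ccr7, -1.04 to 0.77 for Dpp4, -1.87 to 0.77 for Flt3, -1.33 to 0.79 for Irf4, -2.86 to 0.45 for Itgax, -0.80 to 0.75 for Xcr1 and -0.79 to 0.57 for Zbtb46. The cause was not tested.

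Depth limits the 9 markers other than Itgax: Siglech had 2 to 243 reads in a library and Kmo 4 to 158. With 2 libraries a group and 4 residual degrees of freedom, values that did not pass are not shown to be equal.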

Other observations

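Among the genes of the dendritic cell lists, a few had profiles not described above, given here as values chosen after they were seen. Cd207, which encodes langerin, a lectin of Langerhans cells and of some conventional dendritic cells, had 40.9 CPM in WT day 0 replicate 2 and 90.4 CPM in KO day 0 replicate 2. In the other 6 libraries, the replicate 1 libraries and both replicate 2 libraries with TNF, it ran from 0.583 to 1.74 CPM. Ccl22, a chemokine of mature dendritic cells and activated macrophages, had 0.547 and 0.631 CPM in untreated and 4.68 and 14.5 CPM in treated WT replicates. KO replicates had 1.0 and 3.20 CPM untreated and 15.5 and 53.2 CPM treated. Klrb1c, which encodes the natural killer cell receptor NK1.1, was the 1 gene of the T and NK cell list that passed the filter: it ran from 0.0715 to 0.260 CPM at day 0 and from 0.898 to 8.01 CPM with TNF.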
